A study of Mus musculus with 7 samples.

Results

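Cytosolic sulfotransferases (Sult genes) and UDP-glucuronosyltransferases (Ugt genes) were read in the livers of fasted WT and SHIVA mice. They are the genes of every non-control probe of the arrays whose name begins with Sult or Ugt and a digit, with the probe of highest mean signal standing for the gene. This gave 32 genes, 17 Sult and 15 Ugt, of 36492 gene names on the arrays, read by 41 probes. All 7 mice were female C57BL/6, 8 to 12 weeks old, and had been fasted for 24 h. The 3 WT mice were controls of the same background. The 4 SHIVA mice carry an ENU-induced base change in Sox17 that replaces 1 amino acid in the DNA-binding HMG domain, and the study describes the mutants as heterozygous and kept by crossing SHIVA males to C57BL/6 females, so that the allele is in every cell of the animal and not in the liver alone. Liver RNA of each mouse was hybridised to its own one-colour Agilent array, and no RNA was pooled. Values are log2 signals after quantile normalization, so that a difference of 1 is a 2-fold change.

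Conjugation makes small lipophilic molecules soluble enough to leave the body. Sult enzymes move a sulfate group from the donor PAPS to hormones, bile acids and foreign compounds, and Ugt enzymes, which sit in the endoplasmic reticulum membrane, move glucuronic acid from UDP-glucuronic acid to bilirubin, steroids and drugs. Both families are strong in hepatocytes. In mouse liver several Sult genes, the Sult2a cluster and Sult3a1 among them, are known as higher in females than in males, and the nuclear receptors CAR, PXR and PPARα are known to control members of both families.

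The tissue was read as liver in all 7 mice: all 8 hepatocyte markers were well above background on every array, while Prss2, Cpa1 and Pnlip of the pancreas list, Plin1, Cfd and Lep of the adipose list and Vil1, Cdh16, Umod and Lct of the intestine and kidney list were above it on none. Of the same lists Ins2, Fabp2 and Slc34a1 were above it on every array, and Cela1 and Adipoq on some. Only Fabp2 and Slc34a1 of the intestine and kidney list were above background, and the paper measured Fabp2 in liver as a fasting-induced transcript. The summed list lay between 12.21 and 13.13 in WT and between 11.71 and 12.49 in SHIVA. This sum does not by itself read gut or kidney tissue, and its part in the results was not tested. The summed hepatocyte markers lay between 20.25 and 20.38 in WT and between 20.34 and 20.41 in SHIVA. Between 44.5% and 48.7% of probes per array were well above background. Sox17 read 3.41 to 4.52 in WT and 4.46 to 4.76 in SHIVA, and such a level does not show a base change and so does not check the genotype. One slide carried every array, each genotype in a row of its own, so that slide row and genotype cannot be told apart. Among SHIVA mice, mouse 2 stood apart in the acute phase gene Saa2, with 17.36 against 11.98 to 12.82 in the other 3. Among WT mice, mouse 1 stood apart in several Sult2a probes. For genes given mouse by mouse, values that moved by over 1.5 times without either mouse are given without it as well.

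Of the 32 genes, 25 were well above background on all 7 arrays and were tested, 13 Sult and 12 Ugt. None of them was called at an adjusted p under 0.05 (limma, adjusted over 20002 genes), where 0.375% of all genes tested were called. At an unadjusted p under 0.05 there were 4, Sult2a7, Sult3a1, Sult2a2 and Sult1c2, against 13.3% of all genes. The mice of both genotypes did not overlap in 6 of 25 genes, 4 higher in SHIVA (Sult2a1, Sult2a2, Ugt2b37 and Ugt2b5) and 2 lower (Sult2a7 and Sult3a1), where 12.2% of all genes did not overlap, 6.14% higher and 6.02% lower. These 25 values are not independent, since 3 of the Sult2a probes share most of their sequence. The Ugt2b37 and Ugt2b5 probes also overlap, with 46 of 55 bases identical. A log2 fold change above 0 was fitted for 16 of 25 genes, and for 48.8% of all genes. Sizes differed between the families. A log2 fold change of 0.5 or more in either direction was fitted for 8 of 13 Sult genes and 0 of 12 Ugt genes, and for 15% of all genes tested. Leaving out a single mouse could bring Sult1c2 to 0.36, Sult2a1 to 0.32, Sult2a4 to 0.23, Sult5a1 to -0.10 and Sult1e1 to -0.16. Only Sult2a7, Sult3a1 and Sult2a2 kept 0.5 or more in size whichever mouse was left out. With all mice, Sult2a7, Sult3a1, Sult2a2 and Sult2a1 both reached that size and separated the genotypes, which makes 4 of the 25 genes tested, and 6.3% of all genes tested did so. The median log2 fold change was 0.26 for Sult, 0.07 for Ugt and -0.01 for all genes. The median standard error was 0.32 for Sult, 0.16 for Ugt and 0.19 for all genes, so that the Sult genes also varied more between mice. Liver RNA is a mixture, in which fewer cells of a type and less RNA per cell cannot be told apart.

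**Figure D1:**
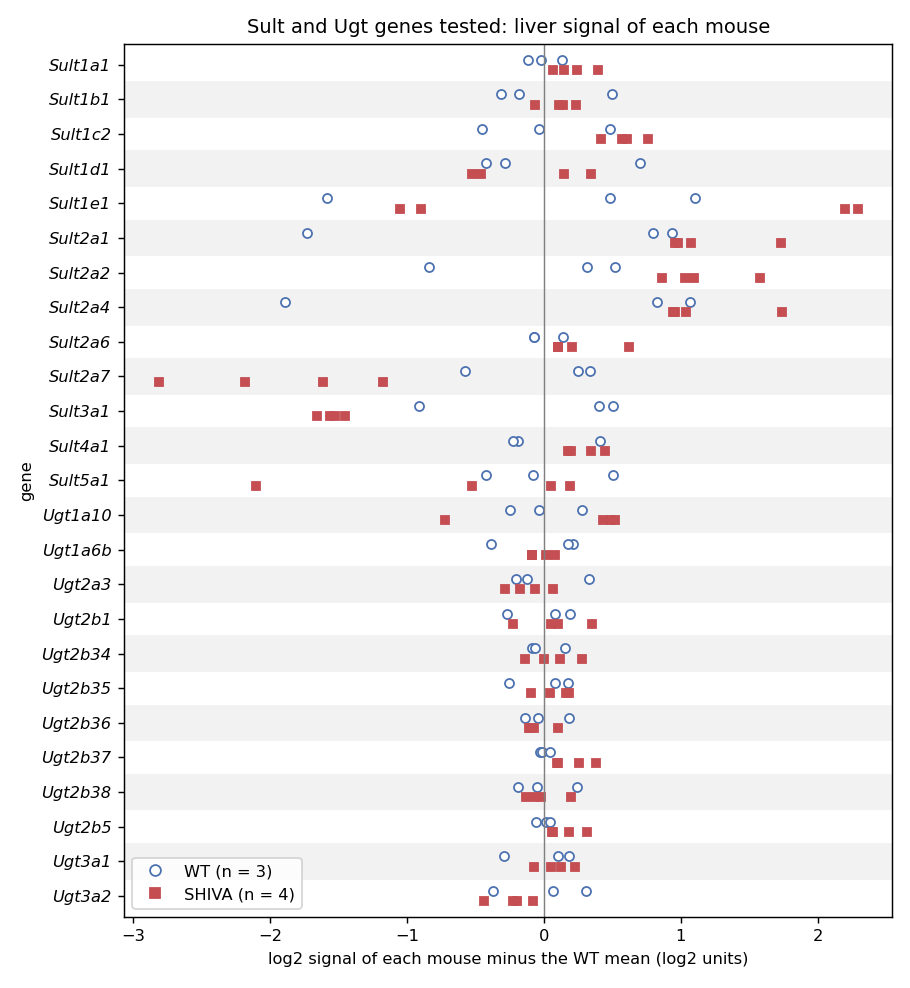
Log2 signal of each mouse minus the WT mean of the same gene, for the 25 genes tested, with WT mice as open circles (n = 3) and SHIVA mice as filled squares (n = 4). Sult2a7 and Sult3a1 have every SHIVA mouse below every WT mouse, Sult2a1, Sult2a2 and Sult2a4 have 1 WT mouse far below the rest, and the Ugt genes lie close to 0.

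The Sult2a cluster lies on chromosome 7, and its enzymes sulfate bile acids and hydroxysteroids such as DHEA. It held both the lowest and the highest fitted values of the 13 Sult genes tested. Probes for Sult2a2 (mm9 chr7:14364926-14364985), Sult2a1 (chr7:14381602-14381661) and Sult2a4 (chr7:14495026-14495085) lie at one side, and that for Sult2a7 (chr7:15050514-15050573) at the other. What a probe can tell apart depends on its sequence. The Sult2a1 and Sult2a2 probes overlap over 59 bases, of which 54 are identical, and the Sult2a1 and Sult2a4 probes over 54, of which 51 are identical. The array annotation lists transcripts of both Sult2a1 and Sult2a4 for each of their probes, and of Sult2a2 and Sult2a5 for the Sult2a2 probe. The same 30-base stretch of each is shown 5′ to 3′, as the probe's own strand, with capitals at the 5 positions where the 3 probes differ.
Sult2a1: ttgttGtGtatcttgaatacctAGatGtgg
Sult2a2: ttgttCtAtatcttgaatacctGAatAtgg
Sult2a4: ttgttCtGtatcttgaatacctAGatGtgg
The Sult2a7 probe lists transcripts of Sult2a7 alone and overlaps none of these. It is shown whole, since it carries the lowest fitted value of those 13 genes.
Sult2a7: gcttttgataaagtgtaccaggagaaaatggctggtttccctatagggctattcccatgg

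Sult2a7 read 9.17, 8.35 and 9.26 in WT 1 to 3 and 7.75, 7.31, 6.12 and 6.74 in SHIVA 1 to 4. Every SHIVA mouse lay below every WT mouse, and the spread within each genotype was wide. The fitted log2 fold change was -1.95 (SE 0.39, 95% interval -2.84 to -1.05), a mean 3.85-fold higher in WT, and the adjusted p of 0.104 missed the threshold (unadjusted 0.000886). It passed with the mean spot signal without background correction (-1.77, adjusted p = 0.0289) and with the authors' normalized table (-1.77). The table ranks spots as the mean signal does on every array (rank correlation 1), so these are not separate readings. Over all alternatives the adjusted p ran from 0.0289 to 0.424. Leaving out each mouse in turn gave -2.24 to -1.66.

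Sult2a2 ran the other way. It read 10.15, 11.51 and 11.31 in WT and 12.02, 12.57, 12.08 and 11.85 in SHIVA. All SHIVA mice lay above all WT mice, with WT 1 the lowest and SHIVA 2 the highest. The log2 fold change was 1.14 (SE 0.33, adjusted p = 0.212) with all mice, 0.72 without WT 1 and 0.58 without both WT 1 and SHIVA 2. The probe for Sult2a1 read 8.94, 11.46 and 11.61 in WT and 11.74, 12.40, 11.65 and 11.62 in SHIVA. The genotypes did not overlap, with WT 3 just under the lowest SHIVA mice, and WT 1 lay far below the other 6 mice. The log2 fold change of 1.19 (SE 0.59, adjusted p = 0.441) became 0.32 without WT 1 and 0.14 without both WT 1 and SHIVA 2.

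Sult2a4, named here after its values were seen, read 6.34, 9.29 and 9.05 in WT and 9.26, 9.96, 9.17 and 9.18 in SHIVA. The genotypes overlapped, and WT 1 was again the lowest and SHIVA 2 the highest. The log2 fold change of 1.17 (SE 0.64, adjusted p = 0.485) became 0.23 without WT 1 and 0.04 without both WT 1 and SHIVA 2. All 3 probes were thus lowest in the same WT mouse and highest in the same SHIVA mouse, and since they overlap in sequence they are not 3 separate readings.

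Sult2a6 was read by a pair of overlapping probes that gave different values. They share 42 bases, of which 40 are identical, and the capitals mark the 2 bases that differ.
Sult2a6, upstream probe: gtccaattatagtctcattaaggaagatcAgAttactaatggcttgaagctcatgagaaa
Sult2a6, downstream probe: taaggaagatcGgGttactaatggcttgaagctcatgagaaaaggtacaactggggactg
The downstream probe has the higher mean and stands for the gene, and its transcripts listed are of Sult2a6, Sult2a1 and Sult2a5. It read 11.32, 11.32 and 11.53 in WT and 11.59, 12.01, 11.50 and 11.49 in SHIVA, a log2 fold change of 0.26 (SE 0.17) with all mice and 0.14 without SHIVA 2. The upstream probe, listed for Sult2a6 and Sult2a1, read 9.01, 10.12 and 10.15 in WT and 10.31, 10.76, 10.13 and 10.19 in SHIVA, a log2 fold change of 0.59 (SE 0.30) with all mice and 0.21 without WT 1. WT 1 was thus low by the upstream probe and not by the downstream one, and SHIVA 2 was the highest mouse by both. Another Sult2a6 probe was above background on no array.

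Sult2a8, a bile acid sulfotransferase of the same cluster, is on the array under its former name 2810007J24Rik, and so is not one of the 32. It read 13.18, 12.66 and 12.91 in WT and 12.46, 12.27, 12.42 and 12.48 in SHIVA. Every SHIVA mouse lay below every WT mouse, and the log2 fold change was -0.51 (SE 0.16, adjusted p = 0.236). Its probe (chr7:14996296-14996355) lies between those of Sult2a6 and Sult2a7. The Sult2a3 probe, which also lists Sult2a4, was well above background in WT 2 and WT 3 only and was not tested, and WT 1 lay below SHIVA 2 by it, so that the genotypes overlapped.

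**Figure D2:**
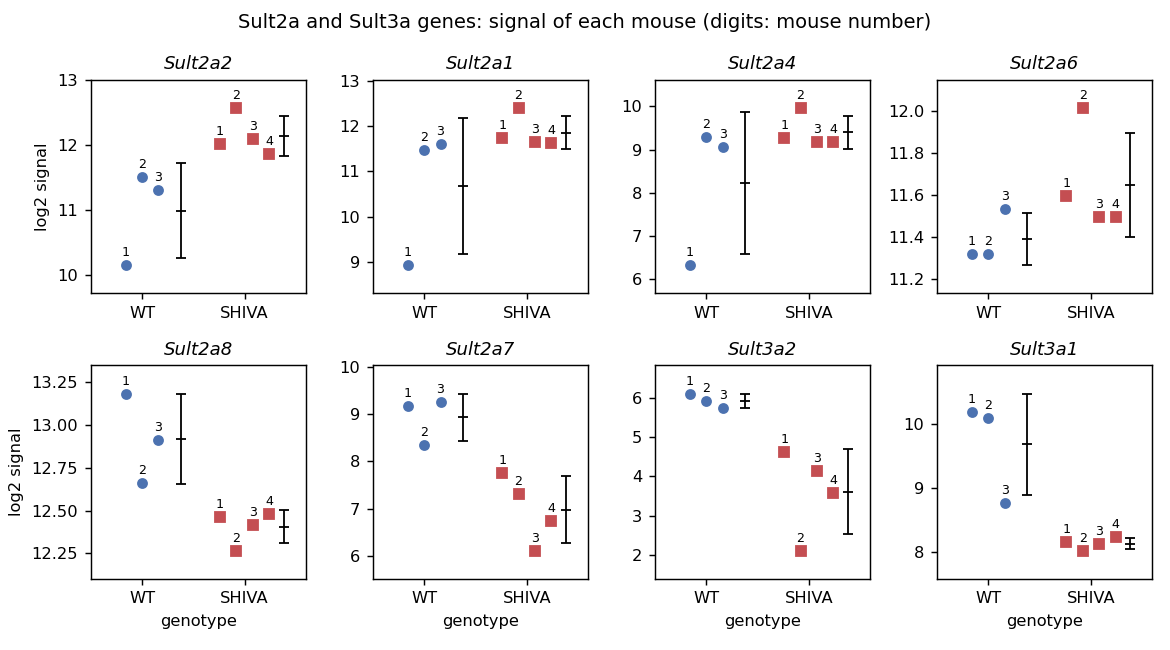
Log2 signal of each mouse in the Sult2a genes, in their order along chromosome 7, and in both Sult3a genes of chromosome 10, each on its own axis that does not start at 0. Digits are mouse numbers, and black bars are the mean ± SD of 3 WT and 4 SHIVA mice. WT 1 is the lowest mouse in Sult2a2, Sult2a1 and Sult2a4, whereas Sult2a8, Sult2a7, Sult3a2 and Sult3a1 have all SHIVA mice below all WT mice.

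Sult3a1, an amine sulfotransferase, was lower in every SHIVA mouse than in any WT mouse, as were Sult2a7 and Sult2a8. Its probe (chr10:33599125-33599184) lists Sult3a1 alone. The Sult3a2 probe (chr10:33499545-33499604) lists Sult3a2 alone. The start of each is shown, since these are the 2 probes behind the Sult3a values.
Sult3a1, first 30 bases: gtagaatattaatcaccacgtgaataaacc
Sult3a2, first 30 bases: gagagtcaccggaatggaactgaaaacatc
Sult3a1 read 10.19, 10.08 and 8.77 in WT and 8.15, 8.02, 8.12 and 8.23 in SHIVA. The 4 SHIVA mice lay close together, and WT 3 lay nearer to them than to the other WT mice. The log2 fold change was -1.55 (SE 0.32, 95% interval -2.28 to -0.82, adjusted p = 0.111), a mean 2.93-fold higher in WT. Without WT 3 it was -2.01 and was called (adjusted p = 0.00361). It was also called with array weights, and with the mean signal and the authors' table, which are not separate readings. Over all alternatives the adjusted p ran from 0.00361 to 0.463.

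Sult3a2, on the array as Gm4794 and so not one of the 32, read 6.11, 5.92 and 5.76 in WT and 4.62, 2.11, 4.13 and 3.58 in SHIVA. It was well above background in all 3 WT mice and in SHIVA 1 and 3 only, so its low values are uncertain. The log2 fold change was -2.32 (SE 0.51, adjusted p = 0.131), and without SHIVA 2 it was -1.82 and was called (adjusted p = 0.0469, from 0.0173 to 0.392 over all alternatives). It was also called, at smaller sizes, with the mean signal (-1.15), the authors' table (-1.16) and normexp background correction (-0.77). All of these lift dim signals, and the mean signal and the table are not separate readings. All mice of the genotypes were apart in both Sult3a genes.

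In the Sult1 subfamily, the phenol and estrogen sulfotransferases, 4 of 5 genes tested had a log2 fold change above 0, and in none did the genotypes separate. Sult1e1, the estrogen sulfotransferase, had the largest fitted value of them and the widest spread of all 25 genes. It read 7.54, 6.92 and 4.85 in WT and 5.38, 8.63, 5.54 and 8.72 in SHIVA. Each genotype held both high and low mice, the fitted 0.63 had an SE of 1.00, and leaving out a mouse gave 1.19 without WT 1, 0.11 without SHIVA 2 and, with the sign turned, -0.16 without WT 3. Sult1c2 had 0.59 (SE 0.22, adjusted p = 0.302), and 0.36 without WT 2, and its unadjusted p was no longer under 0.05 without WT 1, WT 2, SHIVA 1 or SHIVA 4. Sult1a1, the main phenol sulfotransferase of liver, had 0.21 (SE 0.15). Sult1b1, which acts on thyroid hormones, had 0.10, and Sult1d1, which acts on catecholamines, -0.12.

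Of the remaining Sult genes, Sult5a1 read 9.34, 9.68 and 10.27 in WT and 9.95, 7.67, 9.82 and 9.24 in SHIVA. SHIVA 2 was the lowest of all mice and the other SHIVA mice overlapped WT, and the log2 fold change of -0.60 (SE 0.52) became -0.10 without that mouse and -0.34 without WT 3. Sult4a1, best known from brain, was dim, with 5.42, 5.38 and 6.01 in WT and 5.80, 5.95, 5.78 and 6.05 in SHIVA (0.29, SE 0.19). It was 0.18 without WT 2 and 0.50 without WT 3, as low as 0.11 with the mean of its probes, and the second of these probes was above background on no array. Sult1c1, Sult2b1 and Sult6b1 were above background on no array, nor was Sult6b2, which the array names Gm766.

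**Figure D3:**
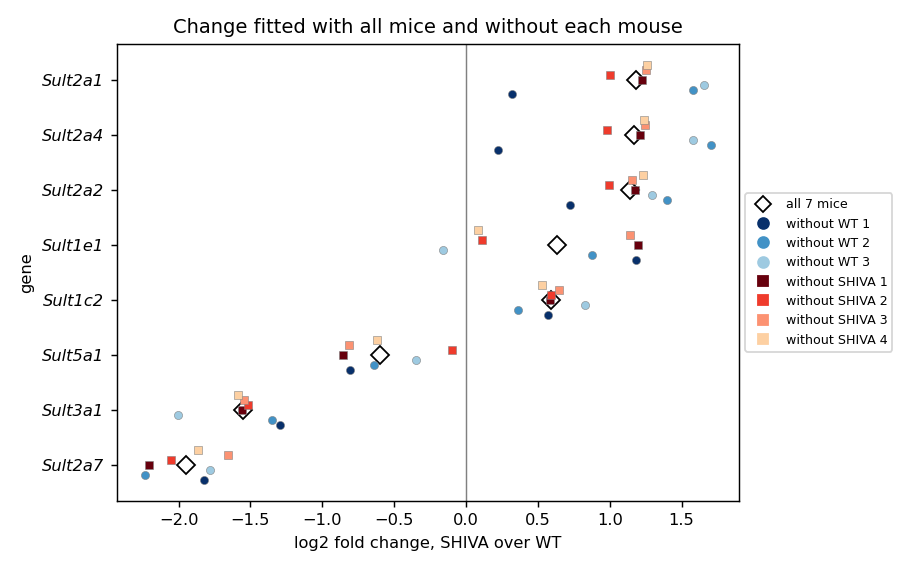
Fitted log2 fold change of SHIVA over WT for the 8 genes with 0.5 or more in size, with all 7 mice (diamonds) and without each mouse in turn (circles for WT mice left out, squares for SHIVA mice). Sult2a7 and Sult3a1 stay at or below -1.66 and -1.30, Sult2a1 and Sult2a4 fall to 0.32 and 0.23 without WT 1, and Sult1e1 turns below 0 without WT 3.

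The Ugt genes tested differed little between the genotypes. All 12 tested had a log2 fold change under 0.3 in size, as did 68.2% of all genes tested, with values from -0.24 to 0.21, and 7 were above 0. Their 95% intervals together ran from -0.66 (Ugt3a2) to 0.90 (Ugt1a10), so that a difference of 2-fold in either direction lay outside the interval of every one of them. This is a bound on the size of a difference and does not show that the genotypes were alike. Of the protein-coding RefSeq genes of both families, 8 had no probe of their own on the arrays. They are Ugt1a1, Ugt1a2, Ugt1a5, Ugt1a7c, Ugt1a8, Ugt1a9, Ugt2a2 and Sult2a5, and the bound does not cover them.

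Ugt2 enzymes glucuronidate steroids, bile acids and many drugs, and their genes lie together on chromosome 5. The 8 tested, Ugt2a3, Ugt2b1, Ugt2b5, Ugt2b34, Ugt2b35, Ugt2b36, Ugt2b37 and Ugt2b38, had log2 fold changes between -0.11 and 0.21. Ugt2b37 had the largest and read 10.25, 10.26 and 10.31 in WT and 10.37, 10.53, 10.37 and 10.65 in SHIVA. All SHIVA mice lay above all WT mice, by a log2 fold change of 0.21 (SE 0.14, adjusted p = 0.569). Ugt2b5 did not overlap either, with 11.84 to 11.94 in WT and 11.96 to 12.22 in SHIVA (0.16, SE 0.14, and 0.10 without SHIVA 4). The probes of Ugt2b37 and Ugt2b5 overlap over 55 bases, of which 46 are identical. Ugt2a1, of olfactory tissue, was above background on no array.

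The Ugt1 enzymes, which include those that glucuronidate bilirubin and phenols, come from 1 locus on chromosome 1 in which each transcript has its own first exon joined to a shared end. Where a probe lies on that locus therefore sets what it reads. The probe of highest mean for Ugt1a6b (chr1:90115493-90115552) lists transcripts of Ugt1a6b, Ugt1a6a, Ugt1a7c and Ugt1a10, and so does not read Ugt1a6b alone. Ugt1a1, Ugt1a2, Ugt1a5, Ugt1a8 and Ugt1a9 are not listed for it. A second Ugt1a6b probe (chr1:90004249-90004308) lists Ugt1a6b alone. A pair of probes for Ugt1a10 lie end to end (chr1:89952720-89952779 and chr1:89952780-89952839), and the second also lists Ugt1a9. The probes that read the individual first exons are shown whole and the shared one by its first 30 bases.
Ugt1a6b, shared end: accaaagtatgttctaaggcaagtacatct
Ugt1a6b, own probe: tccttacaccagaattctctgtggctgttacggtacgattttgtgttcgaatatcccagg
Ugt1a10, first probe: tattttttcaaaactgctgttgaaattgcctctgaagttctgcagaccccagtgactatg
Ugt1a10, second probe: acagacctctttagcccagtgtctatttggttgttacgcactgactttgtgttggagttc

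The shared end read 14.21, 14.81 and 14.78 in WT and 14.68, 14.51, 14.62 and 14.51 in SHIVA. The SHIVA mice lay between the WT mice, and the log2 fold change was -0.02 (SE 0.18) with all mice and -0.22 without WT 1. By its own probe Ugt1a6b read 9.76, 10.23 and 10.84 in WT and 9.87, 9.74, 10.08 and 10.07 in SHIVA (-0.34, SE 0.25), again with overlap, and the difference was -0.06 without WT 3 and -0.60 without WT 1.

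Ugt1a10, the Ugt1 gene with the largest fitted value, read 9.59, 9.80 and 10.12 in WT and 10.27, 9.11, 10.32 and 10.36 in SHIVA by the second probe. Apart from SHIVA 2, which was the lowest of all 7, the SHIVA mice lay above the WT mice. The log2 fold change was 0.18 (SE 0.31) with all mice, 0.48 without SHIVA 2 and 0.06 without WT 1. The first Ugt1a10 probe, in the 60 bases before it, read 5.15, 5.12 and 5.29 in WT and 5.07, 4.39, 4.89 and 5.39 in SHIVA, with a log2 fold change of -0.25 (SE 0.23) that was -0.07 without SHIVA 2 and -0.40 without SHIVA 4. The signs of the probes thus differed while SHIVA 2 was the lowest mouse by both. The probe that stands for Ugt1a6a was above background in SHIVA 4 only. It lists Ugt1a6a, Ugt1a7c, Ugt1a10 and Ugt1a1. The shared-end probe, which lists Ugt1a6a among other transcripts, was above background on every array. Which transcripts gave that signal was not tested, so neither probe gives the level of Ugt1a6a alone.

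In the Ugt3 subfamily, which uses other sugars than glucuronic acid, Ugt3a2 read 13.49, 13.93 and 14.17 in WT and 13.63, 13.43, 13.67 and 13.78 in SHIVA. The genotypes overlapped, and the log2 fold change was -0.24 (SE 0.19), with -0.22 (SE 0.23) by a second probe. It ran from -0.42 without WT 1 to -0.08 without WT 3. Ugt3a1 had 0.08 (SE 0.16). Ugt8a, which adds galactose to ceramide in myelin, was above background on no array.

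**Figure D4:**
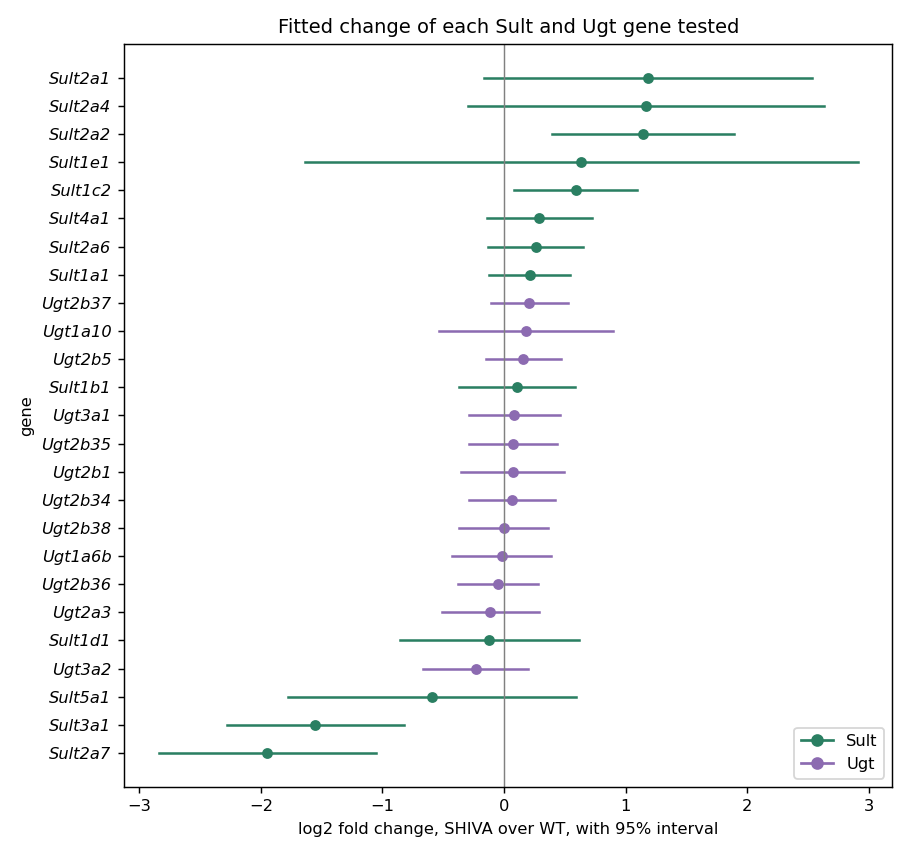
Fitted log2 fold change of SHIVA over WT (points) with its 95% interval (bars) from limma for the 25 genes tested, Sult and Ugt in separate colours, in order of the fitted value. The Sult genes reach from -1.95 to 1.19 and the Ugt genes from -0.24 to 0.21.

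Genes around the families were taken from 6 lists, and 0 of the 81 tested were called (0.375% of all genes), 17 at an unadjusted p under 0.05 (13.3% of all genes). For the supply of the sulfate donor PAPS, 5 of 11 genes had a log2 fold change above 0 (median -0.12), and for the supply of UDP-glucuronic acid 5 of 10 (median 0.00). Conjugate hydrolysis had 3 of 8 above 0 (median -0.08) and transport of conjugates 9 of 15 (median 0.12). The tyrosylprotein and carbohydrate sulfotransferases, which sulfate proteins and glycans in the Golgi, had 9 of 16 (median 0.10). Of these, Chst13, which sulfates chondroitin, read 8.33, 8.20 and 8.34 in WT and 7.80, 7.44, 7.72 and 7.53 in SHIVA. Again no SHIVA mouse reached the WT values, and the log2 fold change was -0.67 (SE 0.15, adjusted p = 0.131).

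Among 21 receptors and transcription factors known to control the families, 9 had a log2 fold change above 0 (median -0.11) and 4 separated the genotypes with 0.5 or more in size (6.3% of all genes). Nr1i3, which encodes the xenobiotic receptor CAR, read 13.04, 13.11 and 13.06 in WT and 11.89, 12.15, 11.98 and 12.39 in SHIVA. The WT mice lay close together and all SHIVA mice lay below them. The log2 fold change was -0.97 (SE 0.16), a mean 1.96-fold higher in WT, and the adjusted p of 0.0547 just missed the threshold. It was called under 6 of 18 alternatives, and its adjusted p ran from 0.0163 to 0.273 over them. The mean signal and the authors' table, which are not separate readings, are both among the 6.

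Ppara, the fasting receptor, read 12.19, 12.61 and 12.33 in WT and 11.66, 11.75, 11.64 and 11.78 in SHIVA. It did not overlap and was lower in SHIVA by a log2 fold change of -0.67 (SE 0.15, adjusted p = 0.132). Stat5b, which carries the growth hormone signal, read 8.78, 8.95 and 9.36 in WT and 9.64, 9.56, 9.48 and 9.61 in SHIVA. Here all SHIVA mice lay above all WT mice (0.54, SE 0.17, adjusted p = 0.233).

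Esr1, the estrogen receptor, was dim, with 5.84, 6.23 and 6.19 in WT and 6.57, 6.31, 6.75 and 6.86 in SHIVA. Its log2 fold change was 0.53 (SE 0.18, adjusted p = 0.262), with no overlap. Whether any of these genes bears on the Sult genes was not tested.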

How the data were processed

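Total RNA from 7 fasted livers was labelled with Cy3 and hybridised to Agilent arrays. The authors deposited scanner output whose intensity values (processed signal, Feature Extraction 10.5.1.1) carry no normalization between arrays, and log2 values of the same arrays after quantile normalization in R. Members and gene lists were chosen with earlier results of these data known. Intensities were log2 transformed and quantile normalized in limma 3.58.1 (R 4.3.3), spots marked as uneven or deviant were left out, spots of a probe were averaged, and the probe of highest mean stood for a gene. Names were updated through RefSeq (GRCm38.p6) for 26413 probes, and positions are those of mm9. Genes well above background on at least 3 arrays (20002) were tested with lmFit and eBayes, without covariates, adjusted by Benjamini-Hochberg and called at 0.05. In simulated data with 200 of 19961 genes changed by 2 log2 units, 87.5% were recovered. That change is larger than the fitted value of any of the 25 Sult and Ugt genes tested. Smaller changes were not simulated, so this share does not tell how many of them would be called. Mouse-by-mouse values were given for genes that were called, that separated the genotypes with a log2 fold change of 0.5 or more in size, or that had the largest change of a subfamily, and Sult2a4, Sult2a6, Sult1c2, Ugt2b5 and the other genes given singly were named after their values were seen. Each mouse is 1 sample. The number of arrays limits the precision. Other scalings, background corrections, filters, the authors' table, array weights, a replicate block, the methods' t-test and leaving out mice were tried.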

Additional observations from a re-analysis of the deposited data

Results flagged for a closer look

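A SHIVA mouse stood apart from the other SHIVA mice, by the gap to its nearest neighbour relative to the whole range, in 3 of 27 genes searched. About 1 in 20 (1.35 genes) is expected by chance for any SHIVA mouse, if the genes are independent. In all 3 genes the mouse was SHIVA 2. It was the highest in Sult2a1, with 12.40 against 11.62 to 11.74, and in Sult2a4, with 9.96 against 9.17 to 9.26. The probes of these genes overlap. It was the lowest in Ugt1a10, with 9.11 against 10.27 to 10.36. The same mouse had 17.36 in Saa2, and whether that bears on these values was not tested. WT groups hold 3 mice and were not searched.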

How the results depend on the processing

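Against 0 Sult and Ugt genes called, 2 (Sult2a7 and Sult3a1) were called with the mean signal without background correction and 2 with the authors' table, 1 (Sult3a1) with array weights, and 0 to 1 without 1 mouse (1 without WT 3). The table ranks spots as the mean signal does on every array (rank correlation 1), so these settings are not separate readings. Genes at an unadjusted p under 0.05 went from 4 to 7 with the mean signal and with the table, and to 3 with the methods' t-test. Over all genes, 75 calls became 142 with the mean signal and with the table, 13 without the filter on dim probes, 269 with array weights, 0 with the methods' t-test after adjustment (2299 at an unadjusted p under 0.05), 6 without both WT 1 and SHIVA 2 (chosen after seeing the data) and 3 to 416 without 1 mouse, namely 3 without WT 1, 8 without WT 2, 416 without WT 3, 7 without SHIVA 1 and 13 without SHIVA 3. Of the calls, 49.3% were higher in SHIVA, 38% with normexp and 60.6% with the replicate block. Over all settings with calls this share ran from 30.8% (no filter on dim probes) to 100% (without WT 1, with 3 calls, and without both WT 1 and SHIVA 2, with 6). Of the listed neighbours, 1 (Nr1i3) was called with the mean signal, normexp, the table and the filter on all 7 arrays, 2 (with Ppara) with array weights and 0 to 2 without 1 mouse (Nr1i3 and Nfe2l2 without WT 3). Signs turned only in genes whose fitted value was smaller than its SE. With array weights Sult1e1 had -0.447, Ugt2b34 -0.043 and Ugt2b38 0.0062. With the mean of all probes Sult1d1 had 0.026 and Ugt1a10 -0.036 (-0.25 by its other probe). With the table Ugt1a6b had 0.0017 and Ugt2b38 0.081, and Ugt2b38 had 0.0583 with the mean signal and 0.0578 with normexp. Without both WT 1 and SHIVA 2, Sult1d1 had 0.072, Ugt2a3 0.034, Ugt2b34 -0.051 and Ugt3a1 -0.011. Without 1 mouse each, Sult1b1 ranged from -0.052 to 0.35, Sult1d1 from -0.33 to 0.23, Sult1e1 from -0.16 to 1.20, Ugt1a6b from -0.22 to 0.085, Ugt2a3 from -0.21 to 0.051, Ugt2b1 from -0.066 to 0.17, Ugt2b34 from -0.0073 to 0.14, Ugt2b35 from -0.055 to 0.16, Ugt2b36 from -0.12 to 0.046, Ugt2b38 from -0.099 to 0.12 and Ugt3a1 from -0.062 to 0.18. The causes were not tested. Sult2a7 and Sult3a1 were below 0 under all 18 alternatives. The second probes of Sult2a6, Ugt1a10 and Ugt1a6b were also compared without each mouse, chosen after seeing the data, and kept their signs.

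Mice of the same number share nothing that the labels name, and their deviations correlated at -0.05, 0.01 and 0.24. A replicate block over 3 pairs gave 66 calls over all genes and 0 among Sult and Ugt genes, and changed no call among the genes named. It had Ugt1a6b at 0.0024 and Ugt2b1 at -0.023, the same fitted values as without SHIVA 4 and with no block. SHIVA 4 has no pair and was not in the block.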
